A study of Mus musculus with 4 samples.

Results

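The genes described here are 37 genes of glucose uptake, glycolysis, lactate production and export, pyruvate dehydrogenase control and the HIF1 oxygen-sensing axis. They were chosen by name: a locus was a member if any of the comma-separated gene names the table gave it was among the 37. In all 36 of the 37 names were found, on 38 of the 30043 loci in the table, because Hk3 and Pfkfb3 each had 2 loci and no locus carried the name Pkm. A locus named Pkm2, which RefSeq lists as a synonym of Pkm, lies outside the rule and is reported beside the members. Of the 38 member loci, 34 reached an FPKM (mapped fragments divided by transcript length and by library size) of at least 1 in at least 2 libraries and were tested, among 11020 loci tested in the whole table.

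The study sequenced RNA from splenic CD4 dendritic cells of C57BL/6 mice, sorted as CD11c+I-Ab+CD4+CD8- at a stated purity above 99%. Control mice had received 100 uL of PBS, and the treated mice 1000000000 sheep red blood cells (SRBC), 1 h earlier, with 2 libraries in each group. All mice of both groups, controls included, were heterozygous for GPR183, the chemoattractant receptor gene Gpr183, so no wild-type cells were compared here. Nothing in the labels ties each library to its own mouse, so p-values here reflect the spread between libraries, which may be technical.

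Glycolysis carries glucose through phosphorylated hexoses and triose phosphates to pyruvate. Lactate dehydrogenase turns pyruvate into lactate, which leaves the cell through monocarboxylate transporters, while the pyruvate dehydrogenase complex sends pyruvate into the mitochondrial cycle unless pyruvate dehydrogenase kinases switch it off. HIF1, a dimer of HIF1A and ARNT, drives transcription of many of these genes, and in the presence of oxygen prolyl hydroxylases mark HIF1A for the VHL ubiquitin ligase, so HIF1A protein is controlled largely by its stability. Dendritic cells are known to raise their glycolytic rate early after microbial stimulation.

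The sort genes matched the labels. Itgax, which encodes CD11c, lay between 180.3 and 253 FPKM over the 4 libraries at its higher locus, H2-Ab1 between 3905 and 8908, Cd4 between 75.8 and 96.4, and Cd8a between 1.20 and 2.63. The summed FPKM of the table was 410321 and 377167 in the PBS libraries and 509007 and 558016 in the SRBC libraries, so the scale between groups is itself uncertain. Markers of other cells also differed between libraries. The 10 red cell loci summed to 157 and 36.1 FPKM in the PBS libraries against 280.1 and 525, with 6 of 7 tested loci called higher and none of the 10 at 0 in all libraries. The most abundant was the beta-globin locus named Beta-s, at 74.6 and 18.4 against 141 and 276. The 8 neutrophil loci summed to 63.7 and 7.15 against 41.2 and 94.7, with S100a8 and S100a9 called higher although their groups overlapped. Other marker sums overlapped between the groups for B cells (25.6 to 39.8 against 24.5 to 49.0), T cells (9.46 to 20.4 against 14.9 to 22.2), plasmacytoid dendritic cells (55.2 to 154 against 69.7 to 120.3) and NK cells (5.81 to 19.3 against 11.05 to 30.7). Those of macrophages did not overlap (140 and 121 against 158 and 193), but the loci of that list differed in direction. Of its 8 tested loci, 4 lay higher in both SRBC libraries and 1 lower. Spic stood at 5.35 and 5.54 against 31.4 and 36.8 FPKM, and Emr1, the lower one, at 44.3 and 54.1 against 33.6 and 36.7. Of these lists' tested loci, Cd5 (1 of 5 T cell loci) and Spic (1 of 8 macrophage loci) were called higher, and none of the 8 B cell, 6 plasmacytoid and 4 NK cell loci was called. By their mean over the libraries the most abundant markers were Cd79b, Cd5, Bst2, Nkg7 and Emr1, which reached 12.1 FPKM for Cd79b (B cell), 11.5 for Cd5, 42.7 for Bst2 (plasmacytoid), 13.1 for Nkg7 (NK cell) and 54.1 for Emr1 (macrophage). Of 11 tested dendritic cell loci, Irf4, H2-Ab1 and Zbtb46 were called higher (27.3%) and Clec4a4 lower (9.09%). The authors' deposited q-values were 0.932 for H2-Ab1 and 0.190 for Zbtb46, and 0.00101 for both Irf4 and Clec4a4. Beside the counts of all these marker lists, 13.5% of all tested loci were called higher and 6.2% lower. The part of other cells in the results on glucose metabolism was not tested. In bulk libraries, more cells of a type and more RNA per cell cannot be told apart. Xist stood at 0.21 and 0.33 FPKM in the PBS libraries and at 339 and 306 in the SRBC libraries, and Eif2s3y, on the Y chromosome, at 31.4 and 38.4 against 0.11 and 0.055. Kdm5d, Ddx3y and Uty were likewise called lower, so treatment and sex cannot be told apart in these data.

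After SRBC the called members moved in both directions, and 10 of the 11 were higher on the scale of the deposited values. Log2 fold changes and tests came from limma on log2(FPKM + 1), fitted on all 11020 tested loci. A called locus had a Benjamini-Hochberg adjusted p under 0.05. A rise given as a number of folds, such as 4.36-fold, is instead the ratio of the group means of FPKM. It therefore differs somewhat from the log2 value beside it. Among the 34 tested member loci, 10 were called higher (29.4%), against 13.5% of all tested loci, and 1 was called lower (2.94%), against 6.2%. The split depended on how libraries were scaled. After upper-quartile rescaling 9 members were called higher (26.5%, against 9.27% of all tested loci) and 3 lower (8.82%, against 12.9%). After quantile normalization these were 6 (17.6%, against 8.37%) and 3 (8.82%, against 8.44%). After rescaling to TPM (FPKM scaled to the same sum in every library) they were 3 (8.82%, against 5.71%) and 5 (14.7%, against 15.0%). As reported, the 10 were the glucose transporter genes Slc2a6 and Slc2a1, Pfkp, Aldoa, Gapdh, Pgk1, Pgam1, Ldha, Hif1a and Egln2, and the locus called lower was Pdk1. The other 23 tested loci were not called, and the 95% interval of the change lay within 2-fold either way for 16 of them. The median log2 fold change was 0.18 over the tested members and 0.07 over all tested loci. The 2 groups did not overlap at 59% of all tested loci. Among the members, they did not overlap at 15 member loci that were higher after SRBC, where 34.3% of all tested loci were so, and at 9 that were lower, where 24.7% were.

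The share of loci called higher was larger among abundant loci. In the quintile of loci with the highest mean FPKM, 723 of 2204 loci were called higher (32.8%), at a median change of 0.42 on the log2 scale. The 10 members in that quintile had 5 called higher and a median of 0.67. Below it 8.68% of 8816 loci were called higher, and 5 of 24 members were called higher and 1 lower, with a median of 0.02.

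**Figure D1:**
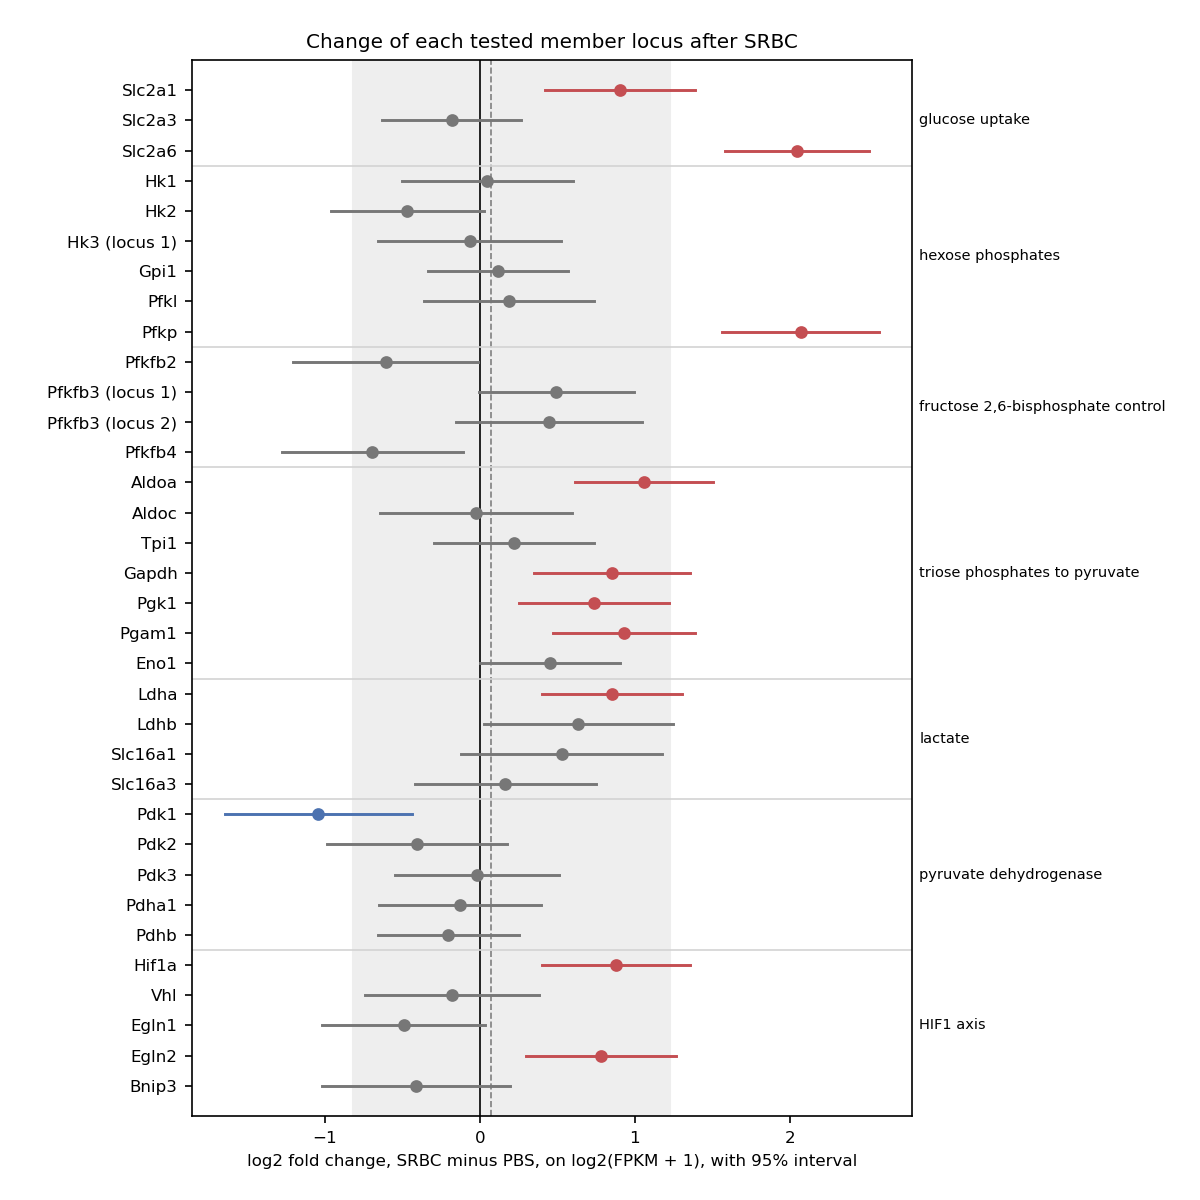
Log2 fold change of each tested member locus (SRBC minus PBS, on log2(FPKM + 1), 2 libraries a group), with bars for the 95% interval. Red marks loci called higher and blue the locus called lower by limma at an adjusted p under 0.05, the dashed line is the median of all 11020 tested loci (0.07) and the grey band holds their central values (-0.82 to 1.23, the lowest and highest 5% left out). Slc2a6 and Pfkp, at 2.04 and 2.07, lie beyond the band on the high side and Pdk1, at -1.04, beyond it on the low side.

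The core of the hypoxia response element, ACGTG or GCGTG, was present in most member promoters, whether or not the gene changed. RefSeq promoters of GRCm38.p6, spanning 250 bases before to 50 bases after each start, were found for 36 of the 37 genes, 53 promoters in all, and both strands were searched. A core was found in 44 of the 53 (83.0%), in 14 of 16 promoters of called members (87.5%) and in 24 of 29 promoters of tested members that were not called (82.8%). Among 9841 promoters of all tested named genes the share was 61.9%, at a mean GC content of 60.4% against 60.8% in the member promoters. The E-box CACGTG, which contains ACGTG, was in 17.0% of the member promoters and 10.2% of the promoters of all tested genes. Windows of 60 bases are shown for 7 genes called higher and for Pdk1, the gene called lower, so that the promoters of genes that moved in opposite directions can be compared. They are written 5′ to 3′ on the gene's strand, with the cores or their reverse complements in capitals. The positions are chr2:27028076-27028135 on the minus strand for Slc2a6, chr13:6648808-6648867 on the minus strand for Pfkp, chr19:41911729-41911788 on the plus strand for Pgam1 and chrX:106186922-106186981 on the plus strand for Pgk1. Those of the others are chr7:46845728-46845787 on the plus strand for Ldha, chr7:27166819-27166878 on the minus strand for Egln2, chr12:73907704-73907763 on the plus strand for Hif1a and chr2:71873118-71873177 on the plus strand for Pdk1.
Slc2a6: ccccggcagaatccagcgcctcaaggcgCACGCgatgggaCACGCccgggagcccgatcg
Pfkp: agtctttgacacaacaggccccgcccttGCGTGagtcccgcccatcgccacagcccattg
Pgam1: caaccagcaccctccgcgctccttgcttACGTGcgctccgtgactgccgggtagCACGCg
Pgk1: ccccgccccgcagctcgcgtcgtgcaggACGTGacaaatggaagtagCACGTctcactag
Ldha: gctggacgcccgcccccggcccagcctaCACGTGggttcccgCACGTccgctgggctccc
Egln2: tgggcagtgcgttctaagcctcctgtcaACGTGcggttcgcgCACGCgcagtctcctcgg
Hif1a: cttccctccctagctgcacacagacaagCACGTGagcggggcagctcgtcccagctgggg
Pdk1: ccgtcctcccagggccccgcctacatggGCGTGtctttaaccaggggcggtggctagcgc

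In the annotation the windows of Ldha and Hif1a lay in introns of longer transcripts of the same genes (that of Hif1a also in an intron of Gm15283), and the other 6 were intergenic. The Ldha window held CACGTG and a CACGT. The Ldha promoter around that window held 7 cores over both strands, with each of its 2 CACGTG counted on both. Hif1a's window also held CACGTG. The Pdk1 window held a lone GCGTG, and the window of Pfkp, which changed in the opposite direction, likewise held a lone GCGTG. Their whole promoters differed, with 4 cores in that of Pfkp and 2 in the Pdk1 promoter around the window. The promoter of Gpi1, and those of Tpi1 and Vhl, held no core. Nor did a promoter of Aldoa, Pdk1, Hk1, Pdk2, Pfkm and Pkm, each of which had another promoter with a core. A match describes these letters only.

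Of the glucose transporter genes, 2 rose and the third was not called. Slc2a6 encodes GLUT6 and lies at chr2:27021363-27027998 (GRCm38). It stood at 11.5 and 14.3 FPKM in the PBS libraries and at 51.9 and 60.3 in the SRBC libraries. The groups lay far apart, and Slc2a6 rose 4.36-fold (log2 fold change 2.04 ± 0.23 SE, limma adjusted p = 3.2e-08). Slc2a1, the gene of the widely expressed transporter GLUT1 (chr4:119108711-119137983), stood at 9.98 and 10.3 against 18.3 and 21.5 FPKM. It too did not overlap between groups and rose 1.97-fold (0.91 ± 0.24, adjusted p = 0.0063). Slc2a3, which encodes the high-affinity transporter GLUT3, stood at 42.6 and 47.7 against 37.6 and 41.8 FPKM. Both SRBC libraries lay below both PBS libraries, but the difference was not called (-0.18, 95% interval -0.63 to 0.27, adjusted p = 0.61).

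Since FPKM is per length, levels of the 3 transporters can be set side by side within a library, and such a share does not depend on how libraries were scaled. Slc2a3 held 66.5% and 66.0% of their summed FPKM in the PBS libraries and 34.9% and 33.8% in the SRBC libraries. Slc2a6 held 17.9% and 19.7% against 48.1% and 48.8%, so the most abundant transporter transcript was Slc2a3 in both PBS libraries and Slc2a6 in both SRBC libraries. The share of Slc2a1 was 15.6% and 14.2% against 17.0% and 17.4%. The summed level went from 64.0 and 72.3 FPKM to 108 and 124 FPKM. No share was tested: 2 libraries against 2 allow 3 splits, and the smallest two-sided p of an exact permutation test would be 0.333.

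**Figure D2:**
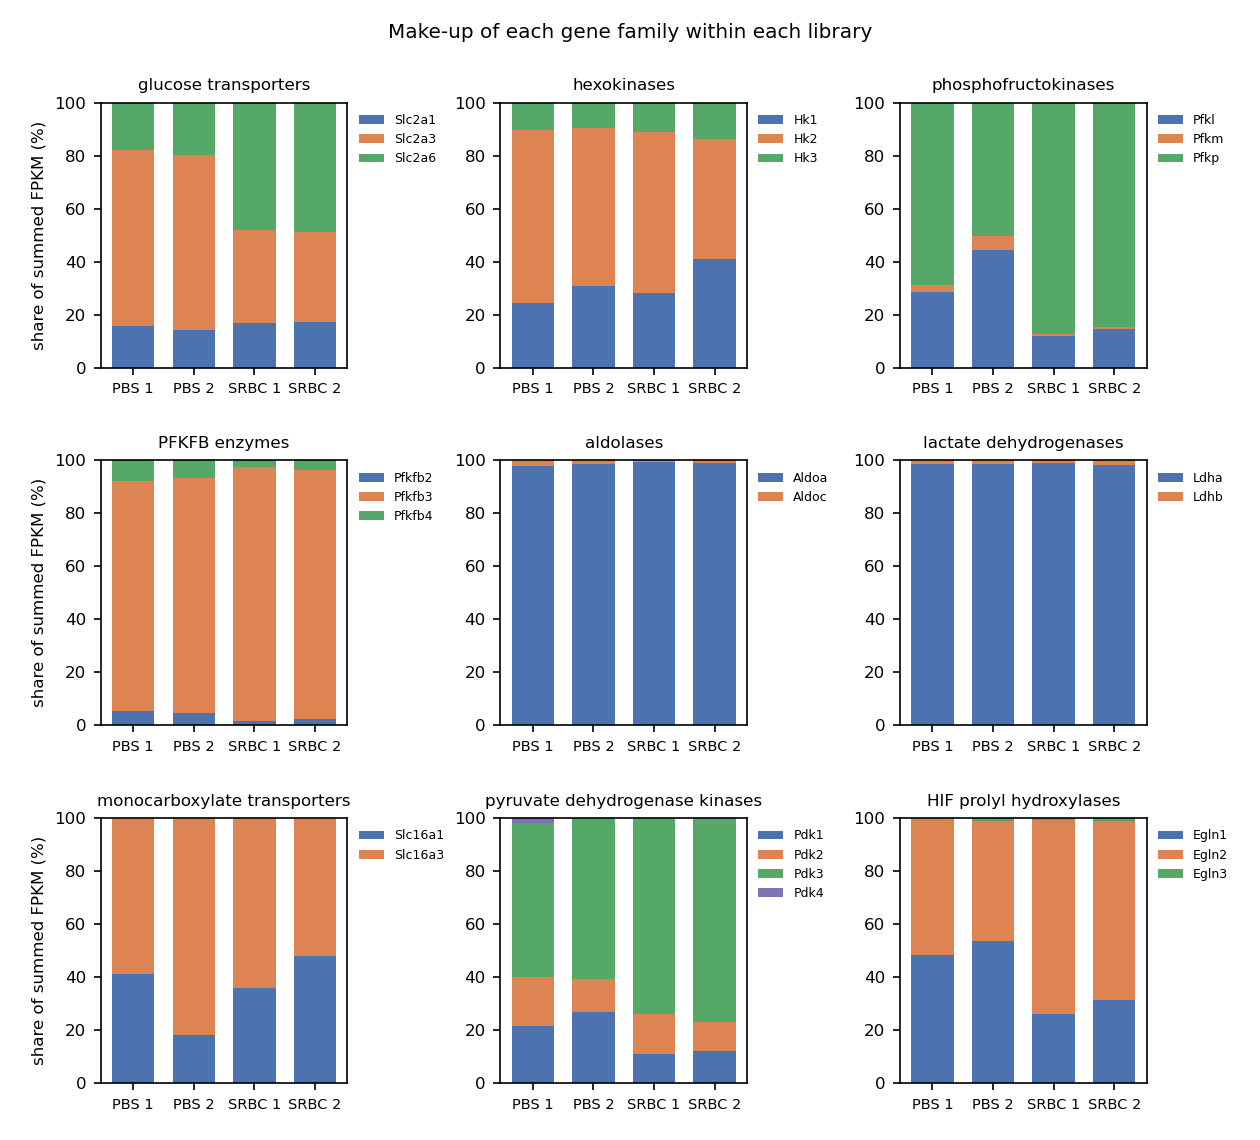
Share (%) of the summed FPKM of each gene family held by each of its members, 1 bar a library. The PBS and SRBC bars differ most for the glucose transporters (Slc2a6 17.9% and 19.7% against 48.1% and 48.8%), the phosphofructokinases and the HIF prolyl hydroxylases, and least for the lactate dehydrogenases, where Ldha holds 98.4% to 98.9% in every library.

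Of the enzymes that make and convert hexose phosphates, Pfkp was called and the others were not. Pfkp encodes the platelet form of phosphofructokinase, the committing step of glycolysis, and lies at chr13:6579768-6648777. It stood at 11.1 and 6.42 FPKM after PBS and at 41.6 and 36.2 after SRBC. Every SRBC library lay above both PBS libraries, and Pfkp rose 4.44-fold (2.07 ± 0.25 SE, limma adjusted p = 1.4e-07). Pfkl, the liver form, stood at 4.599 and 5.67 against 5.74 and 6.20 FPKM and was not called (0.19, 95% interval -0.36 to 0.74). Pfkm, the muscle form, stayed under 1 FPKM in all libraries (0.24 to 0.67) and was not tested. The share of Pfkp in the summed FPKM of the 3 forms was 68.8% and 50.3% in the PBS libraries against 87.3% and 84.9% in the SRBC libraries. That of Pfkl was 28.6% and 44.5% against 12.0% and 14.6%.

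The hexokinases, which trap glucose as glucose 6-phosphate, showed no call. Hk2, the most abundant in every library, stood at 16.6 and 15.3 against 12.7 and 9.92 FPKM. Both SRBC libraries lay below both PBS libraries, at a log2 difference of -0.47 (95% interval -0.96 to 0.03, adjusted p = 0.18). Hk1 stood at 6.15 and 7.92 against 5.86 and 8.96 FPKM, with overlapping groups. Hk3, at its higher locus, stood between 1.79 and 2.45 FPKM with overlapping groups, and its other locus stayed under 1 FPKM and was not tested. The summed hexokinase level was 25.4 and 25.7 FPKM in the PBS libraries against 20.9 and 21.9, so it lay lower in both SRBC libraries while that of the phosphofructokinases went from 16.1 and 12.8 to 47.6 and 42.6. Gpi1, glucose 6-phosphate isomerase, stood at 54.8 and 60.8 against 54.7 and 72.03 FPKM, and its groups overlapped.

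The PFKFB enzymes set the level of the phosphofructokinase activator fructose 2,6-bisphosphate, and none of their 4 loci was called. Pfkfb3, the form with the highest kinase activity, stood at 42.6 and 81.9 against 87.6 and 80.04 FPKM at its higher locus. Here PBS library 2 lay within the SRBC range and PBS library 1 far below it, and the difference was 0.49 (95% interval -0.01 to 1.00, adjusted p = 0.16). Without PBS library 2 both Pfkfb3 loci were called higher, at 0.96 and 0.84, and without PBS library 1 neither was, at 0.031 and 0.047. The other Pfkfb3 locus stood at 3.87 and 7.46 against 10.1 and 5.89 FPKM. Pfkfb4 stood at 4.22 and 6.78 against 2.55 and 3.38 FPKM, and Pfkfb2 at 2.79 and 4.66 against 1.82 and 2.28. For both genes the SRBC libraries lay below the PBS libraries, at -0.69 (adjusted p = 0.087) and -0.61 (adjusted p = 0.15). The share of Pfkfb3 in the family was 86.9% and 88.7% against 95.7% and 93.8%.

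In the lower part of the pathway, from triose phosphates to pyruvate, 4 of 7 tested loci were called higher (57.1%) and none lower. Of all tested loci 13.5% were called higher and 6.2% lower. Among the fifth with the highest mean FPKM, 32.8% were called higher. Aldoa, the aldolase that splits fructose 1,6-bisphosphate (chr7:126800790-126809108), stood at 51.2 and 45.7 FPKM after PBS and at 95.5 and 109 after SRBC. It rose 2.11-fold (1.06 ± 0.22 SE, limma adjusted p = 0.00053), with the groups apart. Its relative Aldoc stood between 0.55 and 1.13 FPKM, with overlapping groups. Gapdh, glyceraldehyde 3-phosphate dehydrogenase (chr6:125161715-125166467), was the most abundant member, at 385 and 422 against 659 and 807 FPKM. It rose 1.82-fold (0.85 ± 0.25, adjusted p = 0.013). Pgk1, phosphoglycerate kinase (chrX:106187100-106203699), stood at 15.3 and 21.99 against 27.7 and 35.2 FPKM. The groups did not overlap and it rose 1.69-fold (0.74 ± 0.24, adjusted p = 0.026). Pgk1 is on the X chromosome, and treatment and sex cannot be told apart here. The other X-linked members, Pdha1 and Pdk3, were not called.

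Pgam1, phosphoglycerate mutase (chr19:41911923-41918660), stood at 46.8 and 38.2 against 71.7 and 92.9 FPKM. It rose 1.94-fold (0.93 ± 0.22, limma adjusted p = 0.0028), without overlap. Eno1, the enolase that follows it, stood at 88.8 and 91.8 against 111 and 139 FPKM. Both SRBC libraries lay above both PBS libraries, but the difference was not called (0.45, 95% interval 0.00 to 0.90, adjusted p = 0.15). Tpi1, triose phosphate isomerase, stood at 7.44 and 8.86 against 9.78 and 9.51 FPKM and was not called (0.22). The locus named Pkm2, for the pyruvate kinase that ends the chain, stood at 42.3 and 43.3 against 72.4 and 84.6 FPKM, a 1.83-fold rise (0.86 ± 0.22, adjusted p = 0.0047, call lost in 3 of 15 alternatives) that is not in the counts of members. Several of these genes share sequence with transcripts of other genes, on either strand. Of the 50-base windows of the longest protein-coding GENCODE transcript, 82.5% occurred in transcripts of other genes for Gapdh. The share was 72.2% for Eno1, 68.0% for Pgk1, 41.5% for Pgam1, 34.4% for Pkm, 17.1% for Pfkp, 16.6% for Ldha, 13.5% for Aldoa and 7.25% for Hif1a. The sources used here do not say how reads with several matches were counted. The levels of these genes are therefore uncertain, while Slc2a6, Egln2 and Pdk1 had no such window and Slc2a1 had 1.74%.

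**Figure D3:**
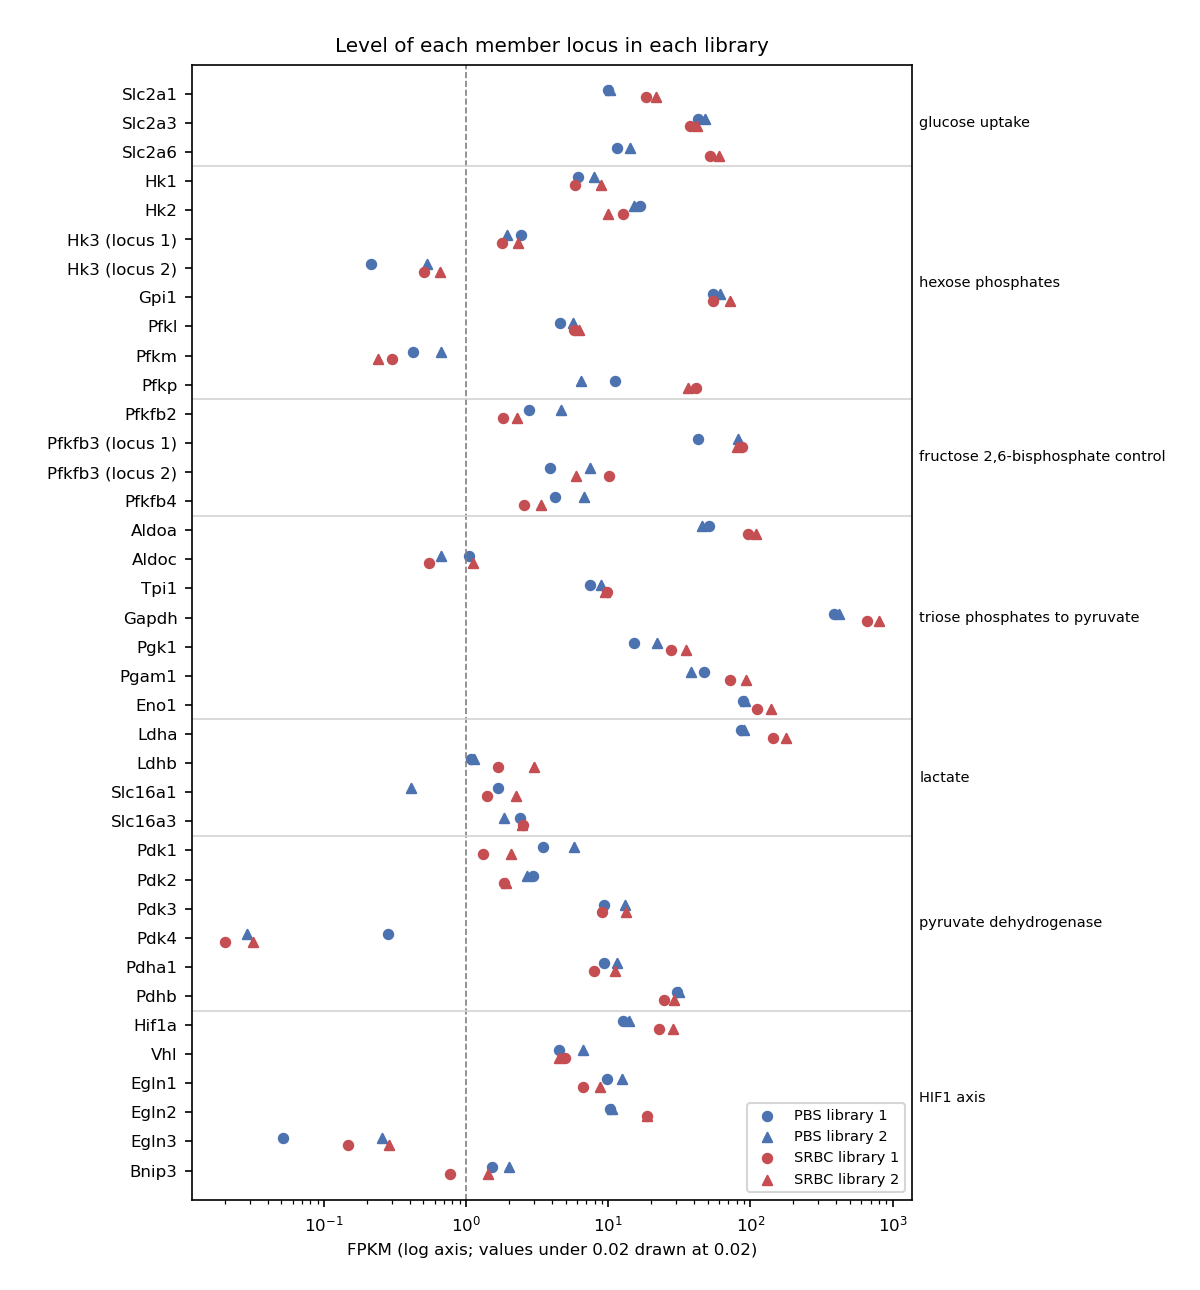
FPKM of each of the 38 member loci in each library on a log axis, PBS libraries in blue and SRBC libraries in red, grouped by role; the dashed line is the minimum of 1 FPKM for testing. Gapdh is highest in every library (385 to 807 FPKM), and the 4 loci left untested, the lower Hk3 locus, Pfkm, Pdk4 and Egln3, lie left of the line.

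At the lactate step, Ldha rose and the export genes stood low. Ldha, the muscle-type lactate dehydrogenase subunit that favours lactate production (chr7:46841475-46855627), stood at 86.2 and 90.8 FPKM after PBS and at 144 and 179 after SRBC. The groups lay apart, and it rose 1.83-fold (0.85 ± 0.22 SE, limma adjusted p = 0.0055). Ldhb, the heart-type subunit, stood at 1.07 and 1.14 against 1.68 and 2.99 FPKM, higher in both SRBC libraries but not called (0.64, adjusted p = 0.14). The ratio of Ldha to Ldhb was 80.4 and 79.9 in the PBS libraries against 86.1 and 59.7, with overlapping groups. Slc16a1, the gene of the monocarboxylate transporter MCT1, stood at 1.66 and 0.41 against 1.396 and 2.25 FPKM. Slc16a3, the gene of the exporter MCT4, stood at 2.39 and 1.84 against 2.50 and 2.46 FPKM, and neither transporter was called (0.53 and 0.17). Bsg encodes basigin, the partner protein that brings both transporters to the cell surface, and was no member. It stood at 33.004 and 35.96 against 52.9 and 61.7 FPKM and rose by 0.71 ± 0.22 on the log2 scale (adjusted p = 0.019). Its call was lost in 7 of 15 alternative ways of processing, and its q-value in the authors' deposited table was 0.947.

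Control of pyruvate dehydrogenase held the 1 member that fell. Pdk1, a kinase that inactivates the complex and a known HIF1 target (chr2:71873224-71903858), stood at 3.47 and 5.77 FPKM after PBS and at 1.32 and 2.07 after SRBC. Both SRBC libraries lay below both PBS libraries, and Pdk1 fell by 1.04 on the log2 scale (± 0.30 SE, limma adjusted p = 0.011). Ldha, Slc2a1, Pgk1 and Aldoa, which are HIF1 targets too, rose. Bnip3, another HIF1 target, lay lower in both SRBC libraries without a call (-0.41). So did the members Pfkfb4 (-0.69), Egln1 (-0.49) and Hk2 (-0.47). The members were not sorted into HIF1 targets and others, so these genes are examples only. Among 19 tested loci of other HIF1 targets, given below, 5 were called higher and 2, Ddit4 and Narf, lower. The part of HIF1 was not tested. Pdk2, another kinase of the family, stood at 2.96 and 2.67 against 1.84 and 1.904 FPKM, not called (-0.41). Pdk3, the most abundant of the kinases, stood at 9.40 and 13.1 against 9.04 and 13.3 FPKM with overlapping groups. Pdk4 stood between 0 and 0.28 FPKM and was not tested. The share of Pdk1 in the summed FPKM of the kinases went from 21.5% and 26.7% to 10.8% and 12.0%, and that of Pdk3 from 58.4% and 60.7% to 74.1% and 76.8%. Pdha1 and Pdhb encode the subunits of the first enzyme of the complex, and neither was called. Pdha1 stood at 9.38 and 11.4 against 7.96 and 11.1 FPKM, and Pdhb at 30.5 and 31.2 against 24.8 and 28.8. The ratio of Ldha to Pdha1 was 9.19 and 7.95 in the PBS libraries against 18.1 and 16.1.

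In the HIF1 axis the factor and 1 of its hydroxylases rose. Hif1a, the regulated subunit of HIF1 (chr12:73901375-73947530), stood at 12.8 and 13.9 FPKM after PBS and at 22.6 and 28.5 after SRBC. The groups did not overlap, and Hif1a rose 1.91-fold (0.88 ± 0.23 SE, limma adjusted p = 0.0070). Egln2, the gene of the prolyl hydroxylase PHD1 (chr7:27158658-27166802), stood at 10.4 and 10.6 against 18.7 and 18.7 FPKM. It rose 1.79-fold (0.78 ± 0.24, adjusted p = 0.018). Egln1, the gene of PHD2, the main oxygen sensor for HIF1A, stood at 9.74 and 12.5 against 6.59 and 8.72 FPKM. Its SRBC libraries lay below its PBS libraries, without a call (-0.49, 95% interval -1.02 to 0.04, adjusted p = 0.19). Egln3, the hypoxia-inducible form, stayed between 0.052 and 0.29 FPKM and was not tested. Within the family, Egln1 held 48.3% and 53.7% of the summed FPKM in the PBS libraries against 25.9% and 31.4%, and Egln2 51.4% and 45.2% against 73.6% and 67.5%. Vhl, which carries hydroxylated HIF1A to degradation, stood at 4.53 and 6.59 against 4.98 and 4.49 FPKM with overlapping groups. Bnip3, a mitophagy gene and HIF1 target, stood at 1.53 and 2.01 against 0.78 and 1.42 FPKM and was not called (-0.41, adjusted p = 0.36).

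Set against all transcripts, the share of the glycolytic chain was higher in both SRBC libraries than in both PBS libraries. The enzymes from hexokinase to lactate dehydrogenase summed to 779 and 820.1 FPKM in the PBS libraries and to 1244 and 1511 in the SRBC libraries. Per 1000000 of each library's summed FPKM, which removes the scale between libraries, they made up 1899 and 2174 in the PBS libraries against 2445 and 2708, a 1.26-fold difference of the means. Without Gapdh, which held the largest part, the difference was 1.20-fold, and with the locus named Pkm2 added it was 1.27-fold.

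A q-value under 0.05 was given to 10 of the 34 tested member loci in the authors' deposited table, and to 1381 of all 11020 tested loci. All 10 were also called here, from the same 4 libraries, so the 2 sets of calls are not independent. The remaining call was Egln2, whose q-value in the authors' deposited table was 0.0597. The lowest q-value of the members there, 0.00101, was shared by Slc2a6, Pfkp and Aldoa.

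Genes next to the members in the pathway are counted below against the same background, 13.5% of all tested loci called higher and 6.2% lower. Of the 22 called loci in these lists, 9 kept their call under every alternative, namely Gpd2, Eno2, Rora, Ndrg1, Hilpda, Ddit4, Txnip, Pik3r1 and Pik3r5. Of 15 tested loci of other glycolytic and glucose uptake isoforms, 3 were called higher (20%), none lower, at a median of -0.02 on the log2 scale. They were Bsg, given above, Eno2 and Gpd2. Eno2, the neuronal enolase isoform, stood at 2.20 and 3.78 FPKM after PBS and at 23.5 and 19.0 after SRBC, and rose by 2.50 ± 0.27 on the log2 scale (limma adjusted p = 1.4e-08). Its share of the enolases Eno1, Eno2 and Eno3, a family chosen after its values were seen, went from 1.405% and 2.41% to 12.4% and 8.33%. Gpd2, the mitochondrial enzyme of the glycerol phosphate shuttle, stood at 15.9 and 15.9 against 63.5 and 69.9 FPKM and rose 4.195-fold (log2 SE 0.22, adjusted p = 2.7e-08).

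In the pathways downstream of and beside glycolysis, calls were at most 3 a list. None of 6 tested loci of pyruvate entry into mitochondria was called, at a median of 0.30. Of 24 tested loci of the tricarboxylic acid cycle, 2 were called higher (8.33%) and 1 lower (4.17%), at a median of 0.22. Irg1, the itaconate-producing enzyme, stood at 0.64 and 0.24 against 3.13 and 1.80 FPKM (1.25, limma adjusted p = 0.0032), and Slc25a1, the mitochondrial citrate carrier, rose by 0.79 (adjusted p = 0.021). Idh1, the cytosolic isocitrate dehydrogenase, fell by 0.86 (adjusted p = 0.032). The call of Slc25a1 was lost in 7 of 15 alternatives, all 4 rescalings among them, that of Idh1 in 5 of 14 and that of Irg1 in 2 of 14. In the pentose phosphate pathway 0 of 15 tested loci were called higher and 3 lower (20%), at a median of 0.22. They were Shpk, H6pd and 1 of several loci named G6pdx, which lost their calls in 2, 5 and 6 of 14 alternatives. The most abundant G6pdx locus, singled out after its values were seen, stood at 15.0 and 21.5 against 19.3 and 23.6 FPKM, with overlapping groups. Of 14 tested loci of glycogen turnover none was called, at a median of -0.02.

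Other HIF1 target genes moved in both directions. Among 19 tested loci, 5 were called higher (26.3%) and 2 lower (10.5%), at a median of 0.30. Rora, a nuclear receptor gene, stood at 2.34 and 1.48 FPKM after PBS and at 30.0 and 21.5 after SRBC (3.20 ± 0.27, limma adjusted p = 1.2e-10). Ndrg1, a stress-responsive gene, stood at 1.91 and 1.75 against 19.7 and 22.1 FPKM (2.95 ± 0.26, adjusted p = 3.4e-10). Hilpda, a lipid droplet protein gene, stood at 5.31 and 3.21 against 23.0 and 26.5 FPKM (2.32 ± 0.26). Ddit4, an inhibitor of mTORC1 chosen after its values were seen, stood at 37.0 and 92.6 against 9.94 and 11.3 FPKM and fell by 2.36 (± 0.28, adjusted p = 1.1e-07). Vegfa and Mxi1 were the others called higher and Narf the other called lower, chosen likewise. Vegfa lost its call in 9 of 15 alternatives, Mxi1 in 5 of 14 and Narf in 2 of 15. Of 11 tested loci of the HIF and oxygen-sensing machinery, Cited2, which competes with HIF1A for its coactivators, was the only one called. It stood at 18.4 and 13.6 against 6.20 and 9.97 FPKM and fell by 0.92 (adjusted p = 0.011), a call lost in 4 of 15 alternatives. Arnt, the partner of HIF1A, stood at 13.7 and 16.2 against 15.6 and 15.8 FPKM at its higher locus and was not called, and was chosen after its values were seen.

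Upstream, 3 of 18 tested loci of kinases that act on glucose use were called higher (16.7%) and none lower, at a median of 0.33. Pik3r1, a regulatory subunit of phosphoinositide 3-kinase, stood at 31.2 and 27.99 FPKM after PBS and at 166 and 193 after SRBC (2.56 ± 0.22, limma adjusted p = 1.6e-10). Pik3r5, the regulatory subunit of the form that acts downstream of G protein-coupled receptors, stood at 80.6 and 58.4 against 372 and 371 FPKM (2.42 ± 0.23, adjusted p = 1.2e-09). Akt2 was called with a change of 0.65 (adjusted p = 0.045), and lost the call in 11 of 15 alternatives. Of 5 tested loci of glucose sensing by the Mondo and Mlx factors, Tbc1d1 rose by 0.67 (adjusted p = 0.030), a call lost in 9 of 15 alternatives. Txnip, an inhibitor of glucose uptake, stood at 111 and 108 against 44.2 and 51.7 FPKM and fell by 1.18 (adjusted p = 0.00014).

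**Figure D4:**
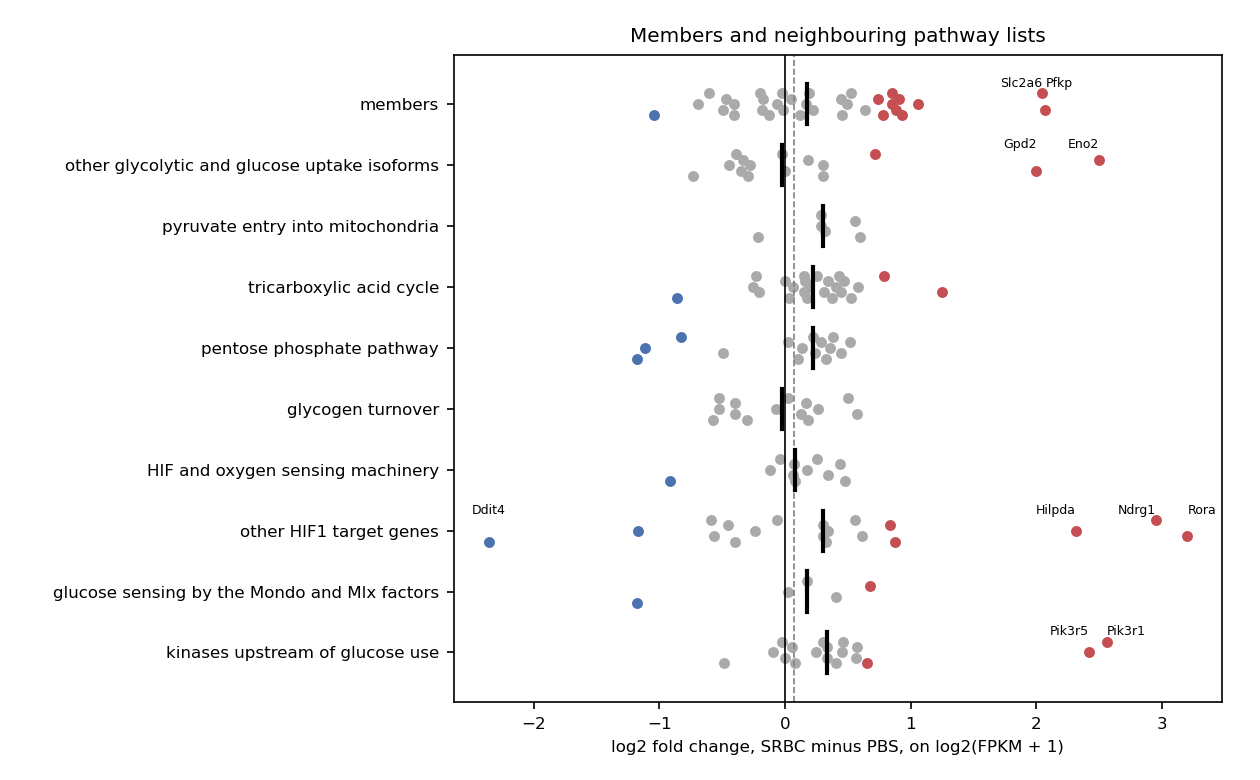
Log2 fold change (SRBC minus PBS, on log2(FPKM + 1)) of every tested locus of the members and of 9 neighbouring lists, 1 point a locus, red called higher, blue called lower, black bars the list medians and the dashed line the median of all tested loci (0.07). The list medians lie between -0.02 and 0.33, while single loci such as Rora, Ndrg1, Pik3r1 and Eno2 lie above 2 and Ddit4 below -2.

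Of the 11 called members, Slc2a6, Pfkp and Aldoa were called under all 15 alternative ways of processing. Slc2a6 ranged from 1.66 to 2.19 on the log2 scale, Pfkp from 1.72 to 2.42 and Aldoa from 0.56 to 1.15. The other 7 genes called higher kept their sign throughout but lost the call in some alternatives. Rescaling to TPM, which lowered the median of all tested loci to -0.33, ended the call of all 7. Quantile normalization ended the calls of Gapdh, Ldha, Pgam1 and Pgk1, and upper-quartile rescaling that of Pgk1. TPM rescaling multiplies each library by a single factor, so it leaves the distance of a gene from the median nearly unchanged and cannot test it. That distance was 0.65 to 2.04 for the 10 genes, against 0.67 to 2.001 as reported. After quantile normalization the lowest of them lay 0.28 above the median. Leaving out SRBC library 2 ended the calls of Slc2a1 (0.80), Hif1a (0.72), Pgam1 (0.75), Ldha (0.70), Egln2 and Pgk1. Gapdh lost its call without PBS library 1 or PBS library 2, Ldha also without PBS library 1, Egln2 without SRBC library 1, and Pgk1 without PBS library 1 or SRBC library 1. Pdk1 lost its call without PBS library 2 (-0.74) or SRBC library 1 (-0.84), and without a filter on low values. PBS library 2 had the lowest red cell and neutrophil marker sums. Without it the median log2 fold change was 0.21 over the tested members and 0.17 over all tested loci, against 0.18 and 0.07 as reported. The part of these other cells was not tested. With no filter, Slc2a6, Pfkp, Aldoa and Slc2a1 were the members called higher.

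**Figure D5:**
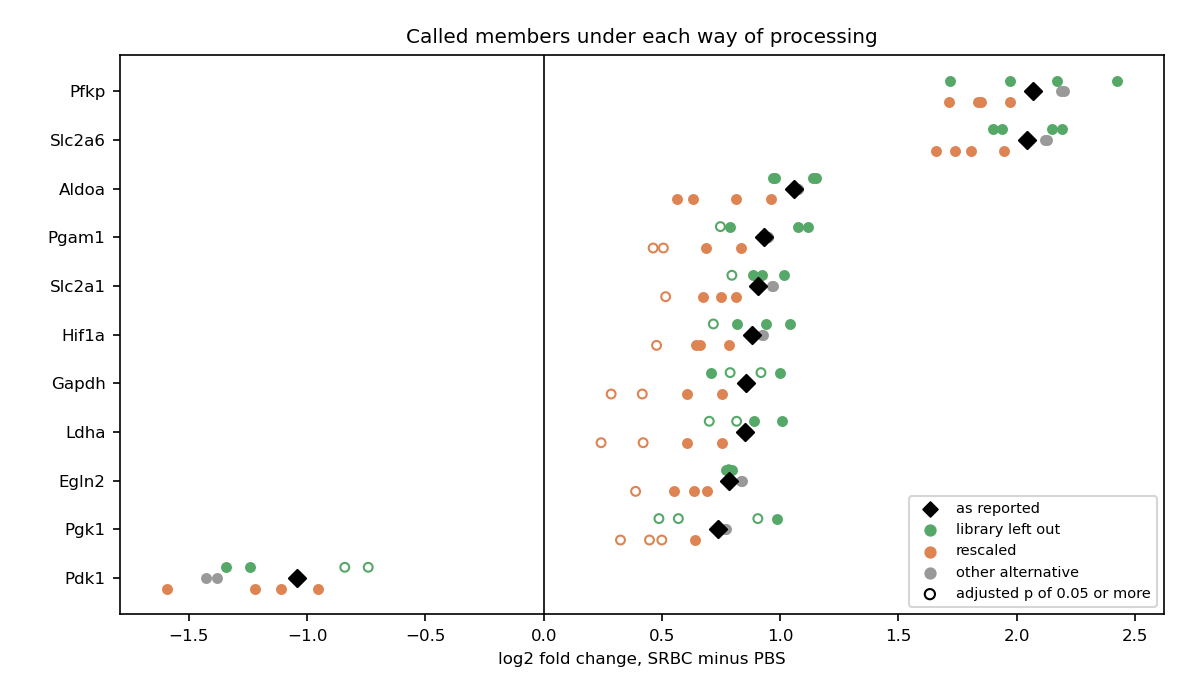
Log2 fold change (SRBC minus PBS) of the 11 called members as reported (black diamonds) and under each alternative: libraries left out in green, rescaled in orange, others in grey, with open circles where the adjusted p was 0.05 or more. Slc2a6, Pfkp and Aldoa have no open circle, and no gene crosses 0.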

How the data were processed

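RNA of 2 PBS and 2 SRBC libraries was compared. The deposited table gives FPKM for every locus and library, per the file headers, and a q-value (adjusted p-value) from the authors' own comparison, which entered no fit. The submitters' processing notes name CASAVA, TopHat2 2.0.8b, Cufflinks 2.1.1 and build mm10. The sources used here do not give the annotation, strand, scaling or read totals, and reads of antisense or overlapping genes may be mixed. Library numbers are those of the table's columns, and the PBS columns are matched to their group by name.

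The members and all gene lists were chosen with earlier results of these data known. All 4 libraries entered a limma 3.58.1 fit (R 4.3.3, lmFit, then eBayes with its trend option) of log2(FPKM + 1) without covariates, over the 11020 loci that had a name and reached 1 FPKM in 2 libraries or more. Tests were two-sided, with Benjamini-Hochberg adjustment over these loci. The added 1 understates the change of low genes. Residual degrees of freedom were 2 and prior ones 28.7, and the median standard error was 0.26. Besides all members, the text names in each list up to 3 called loci with the smallest p, the most abundant marker and the sort and sex-linked genes, and says where a gene was chosen after its values were seen. Depth was estimated from the lowest FPKM values, read as 1 fragment of an assumed 200 bases, at the density peak within a preset range. It came to 9230000 and 10500000 fragments for the PBS and 9440000 and 8910000 for the SRBC libraries, from 48 to 67 loci a library. At these depths 1 FPKM on a 2 kb transcript is 16.1 to 18.9 fragments. On simulated data of 11020 genes for SRBC against PBS, the fit recovered 100% of genes raised by 2 on the log2 scale, 92% of those lowered by 2, and for changes of 1 it recovered 60% upward and 48% downward, of 50 genes each, with 9 false calls among 10820 unchanged genes. The simulated spread was drawn from the fit's own variances, with no scale difference between the groups and few changed genes. The simulation therefore cannot show how the scaling between libraries affects the calls. Coordinates are 1-based from GENCODE M21 on GRCm38, the build also called mm10, matched by symbol. Alternatives were pseudocounts of 0.1 and 0.01, no filter or a minimum FPKM of 5, median-of-ratios, upper-quartile, quantile and TPM rescaling, other variance models, a block for the replicate number, and fits without each library in turn. The inclusion of the locus named Pkm2 was added after seeing the data.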

Additional observations from a re-analysis of the deposited data

How the results depend on the processing

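Members called higher numbered 4 with no filter on low values, 6 after quantile normalization, 3 after TPM rescaling and 4 to 11 with a library left out, against 10 as reported; 4 is without SRBC library 2. Members called lower numbered 0 with no filter or an FPKM minimum of 5 (where Pdk1 was not tested), 2 after median-of-ratios, 3 after upper-quartile, 3 after quantile and 5 after TPM rescaling, and 0 to 3 with a library left out, against 1. Over all tested loci, 751, 922 and 629 were called higher with no filter, quantile normalization and TPM, and 746 (without SRBC library 2) to 1641 with a library left out, against 1488. Those called lower were 184 with no filter, 1417 after upper-quartile and 1648 after TPM rescaling, and 273 to 993 with a library left out (273 without SRBC library 1, 289 without SRBC library 2), against 683. Calls were higher in 68.5% of cases as reported, 58.3% after median-of-ratios, 41.9% after upper-quartile, 49.8% after quantile and 27.6% after TPM rescaling, and upper-quartile and TPM rescaling moved the median of all loci to -0.14 and -0.33. No called member changed sign. Uncalled members changed sign (log2 fold change) as follows. Hk1, 0.049 as reported, was -0.040, -0.17 and -0.36 after median-of-ratios, upper-quartile and TPM rescaling. Gpi1 (0.12) was -0.13, -0.37 and -0.32 after upper-quartile, quantile and TPM rescaling. After upper-quartile and TPM rescaling, Pfkl (0.19) was -0.021 and -0.20, Tpi1 (0.22) -0.00037 and -0.18, and Slc16a3 (0.17) -0.0086 and -0.16. After quantile normalization, Hk3 was 0.044 at its higher locus, Pfkfb3 -0.047, Aldoc 0.019 and Eno1 -0.15. With a library left out, the range was -0.22 to 0.32 for Hk1, -0.19 to 0.062 for Hk3, -0.077 to 0.31 for Gpi1, -0.25 to 0.21 for Aldoc, -0.27 to 0.24 for Pdk3, -0.34 to 0.092 for Pdha1 and -0.41 to 0.052 for Vhl. The cause was not tested. A group with a library left out kept a lone library, assumed to vary like the other group. The replicate numbers did not pair the libraries (correlation of the deviations of the libraries numbered 1 of 0.052, 2 pairs), and with the replicate number as a block 10 members were called higher and 1 lower, while Cited2, Vegfa and the called G6pdx locus lost their calls. Calls were also added: lower for Slc2a3 and Pdhb (quantile), Hk2, Pfkfb2 and Egln1 (TPM, Egln1 also upper-quartile), Pfkfb4 (median-of-ratios, upper-quartile, TPM) and, without PBS library 1, Pfkfb2 and Pfkfb4, and higher for Slc16a1 without PBS library 1 and both Pfkfb3 loci without PBS library 2. With each library left out, the share of the glycolytic chain and the family shares of Slc2a3, Pfkp, Egln1, Pdk3, Hk2 and Pfkfb3 kept their direction, and those of Ldha, Ldhb, Pdk2 and Egln3 did not. At the estimated depths, members under 1 FPKM rest on few fragments.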
